A study of Homo sapiens with 12 samples.

Results

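The cholesterol and fatty acid synthesis genes described here were a list of 32 genes of sterol and fatty acid supply, followed in 2 Ewing sarcoma cell lines with and without mithramycin. A gene was taken up where a probe set of the array was annotated with its symbol alone, and the brightest such set, by its mean across the 12 arrays, stood for it. On this rule 29 of the 32 genes were measured, by 67 probe sets, among 19775 genes in all. CYP51A1 and FADS1 had probe sets that also carried the symbol of a neighbouring gene, so they were not counted, and FDFT1 was not analysed here. All 29 genes entered the tests, since no filter on low values was applied.

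TC32 and TC71 are established human lines of Ewing sarcoma, a tumour driven by a fusion of EWSR1 with an ETS factor gene. Cells were plated, left overnight and then given either the control solvent or 100 nM mithramycin for 6 h, which made 4 groups of 3 biological replicates: TC32 control, TC32 mithramycin, TC71 control and TC71 mithramycin. Each replicate had an array of its own, and this number of arrays limits the precision of every value. The labels name no genetic alteration or further agent in any group.

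Mithramycin is an antibiotic that binds the minor groove of GC-rich DNA and competes there with factors of the Sp family. Animal cells build cholesterol from acetyl-CoA through mevalonate and squalene, and build fatty acids from the same precursor through malonyl-CoA. Both routes are switched on by the SREBP transcription factors, which are made as membrane-bound precursors, escorted by SCAP to the Golgi and cut there when sterols are scarce, while INSIG proteins hold SCAP back when sterols are plentiful. On many promoters SREBPs act together with NF-Y and Sp1.

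Values are log2 expression as deposited, and changes are mithramycin minus control on that scale with the standard error of the limma model (n = 3 arrays per group). A gene was called where the limma adjusted p, corrected over all genes, was under 0.05, and "rose" or "fell" is written of called genes. Arrays of 1 group correlated at 0.9948 or higher and array medians lay between 4.38 and 4.47. As a measure of RNA quality, the 3' probe set of beta-actin exceeded the 5' set by 0.60 ± 0.08 in treated and 0.71 ± 0.04 in control TC32 arrays, and by 0.88 ± 0.10 and 1.45 ± 0.48 in TC71 (SD, n = 3; exact two-sided permutation p = 0.2 and 0.1, where 0.1 is the smallest possible). TC71 control replicate 1 had the widest gap, 2.0, and counts without it are given below. The other TC71 controls, at 1.08 and 1.28, also lay above the treated TC71 arrays (0.79 to 0.99) and the TC32 controls (0.67 to 0.74). The gap thus went with treatment in TC71 and with line among controls, also without that array. Its part in the results was not tested. The 9 measured of 10 Ewing sarcoma markers, among them CD99, NKX2-2 and BCL11B, had group means between 7.11 and 12.19, above every array median. With mithramycin BCL11B went from 10.5 to 7.86 in TC32 and from 10.4 to 7.79 in TC71. In TC32, FLI1 also went from 8.14 to 7.44, NKX2-2 from 9.04 to 8.39 and LINGO1 from 7.73 to 7.15. CCND1 went from 10.6 to 9.65 in TC71. Slightly higher means with mithramycin were seen for CD99 in each line, EWSR1 in TC32 and NKX2-2 in TC71. Of 16 markers of liver, fat, fibroblast, blood, epithelial and endothelial cells, 4 to 6 lay above the highest array median in each group, and their summed level was 59.8 in TC32 control, 61.3 in TC32 mithramycin, 65.8 in TC71 control and 69.0 in TC71 mithramycin. The fibroblast gene DCN led in TC71, at a mean of 8.15 in controls and 8.60 with mithramycin, followed by COL1A1 at 7.26 and 7.47. Of the liver markers, ALB and APOA1 stayed under the array medians in all groups, while TTR had group means between 5.13 and 5.37. Of the fat cell markers, ADIPOQ and LEP stayed under them, while PLIN1 had group means between 4.36 and 4.78. The part of these markers in the results was not tested.

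With mithramycin, SREBF1 and INSIG1 of the sterol-sensing machinery and NPC1 and ABCA1 of sterol transport fell in each line. So did HMGCS1 of the mevalonate steps and ACACA of fatty acid synthesis. In contrast, ACAT2, PMVK, IDI1, TM7SF2, EBP and SC5D of the mevalonate and late cholesterol steps rose slightly in each line. With the mean of all probe sets of a gene, NPC1 lost its call in each line, HMGCS1, ACACA and ABCA1 in TC32, and SREBF1 in TC71. The changes were small: the furthest fall was 0.84, that of ABCA1 in TC71, and the furthest rise was 0.44, that of HSD17B7 in TC32. In TC32, 9 of the 29 genes rose (31.0%, against 25.6% of all genes) and 8 fell (27.6%, against 19.4%). In TC71, 6 rose (20.7%, against 19.4%) and 7 fell (24.1%, against 16.1%). Without TC71 control replicate 1 the TC71 counts were 4 and 7 (all 19775 genes: 3204 and 2958, against 3828 and 3190 with it). Shares over the whole list were thus near those of all genes. The median change was 0.04 in TC32 and -0.05 in TC71, beside 0.08 and 0.07 over all genes. These are bulk values, so fewer cells of a type and less RNA per cell cannot be told apart.

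**Figure D1:**
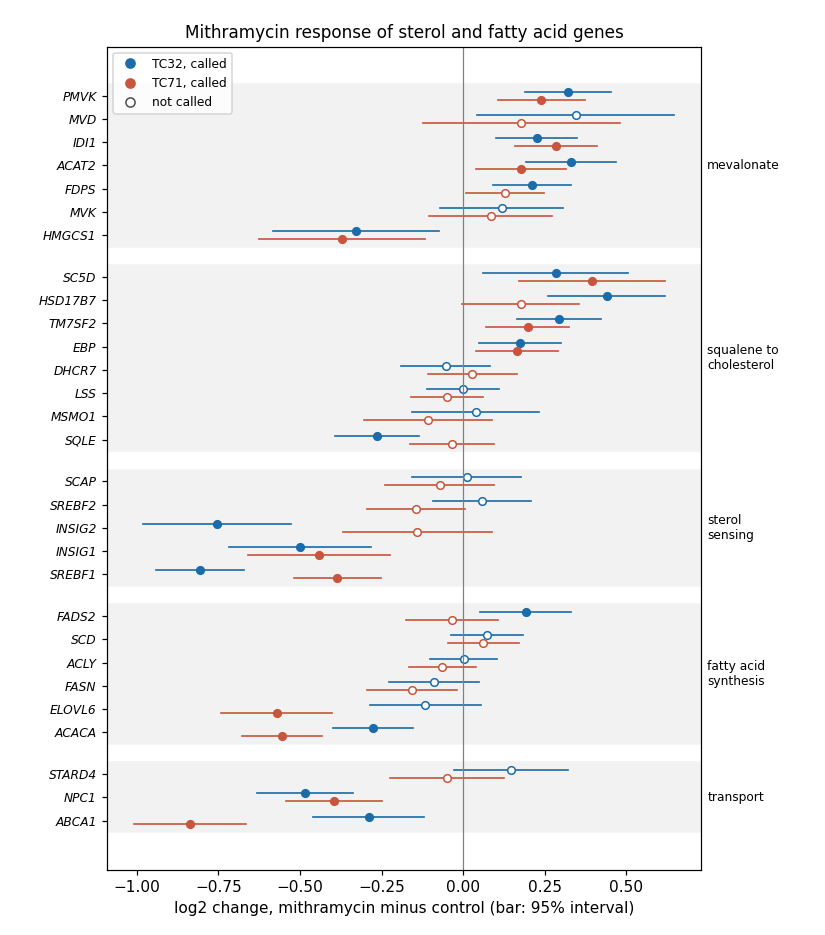
Log2 change with mithramycin (x axis) of the 29 genes, grouped by role, in TC32 (blue) and TC71 (red). Points are limma estimates, bars are 95% intervals and open points were not called. SREBF1 and INSIG2 in TC32 and ABCA1 in TC71 lie furthest to the left, while most mevalonate genes lie to the right of 0.

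All 15 falls and all 15 rises, counted per line, kept their direction under the 3 other scalings tried, but many calls of the small rises were lost. With arrays centred on housekeeping genes, 4 genes rose and 9 fell in TC32 (all 19775 genes: 2758 and 4697). In TC71, 0 rose and 12 fell (all genes: 1564 and 4636). With arrays centred on hybridization controls, 0 rose and 8 fell in TC32, and 5 rose and 6 fell in TC71. The median change of all genes was then -0.01 and -0.06 in TC32 and TC71 with the housekeeping centring, and -0.07 and 0.15 with the hybridization controls. Among the falls, HMGCS1 alone lost a call, in TC32 when quantile normalization was run again (-0.19) and in TC71 with hybridization controls (-0.29). Of all called genes, 56.9% were higher in TC32 and 54.5% in TC71, against 37.0% and 25.2% with housekeeping centring and 20.4% and 67.4% with hybridization controls.

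The lines share no arrays, so their responses can be set side by side. The genes ACAT2, PMVK, IDI1, TM7SF2, EBP and SC5D rose in each line, 6 of 29 genes or 20.7%, beside 13.1% of all genes. HMGCS1, SREBF1, INSIG1, ACACA, NPC1 and ABCA1 fell in each line, again 6 genes or 20.7%, beside 12.7% of all genes. No gene of the list was called in opposite directions (0 of 29). A test of the difference between the lines called 5 genes. SREBF1 and INSIG2 were called for a higher change in TC71 than in TC32 (2 genes or 6.9%, beside 6.27% of all genes), and ACACA, ELOVL6 and ABCA1 for a lower one (3 genes or 10.3%, beside 3.72%).

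Since mithramycin binds GC-rich DNA, the stretch of 250 bases before the start of the 3 genes that fell furthest in the mean of both lines and of the 2 that rose furthest are shown (RefSeq, GRCh38.p14). They are SREBF1 (chr17:17836987-17837236, minus strand), ABCA1 (chr9:104928156-104928405, minus strand), INSIG1 (chr7:155297628-155297877, plus strand), SC5D (chr11:121292521-121292770, plus strand, the more upstream of its starts) and HSD17B7 (chr1:162790452-162790701, plus strand). Each lies directly upstream of its gene and is read 5' to 3' on the strand of the gene. Capitals mark GC boxes (GGGCGG, the core of Sp1 sites) and NF-Y boxes (CCAAT) on either strand.
SREBF1: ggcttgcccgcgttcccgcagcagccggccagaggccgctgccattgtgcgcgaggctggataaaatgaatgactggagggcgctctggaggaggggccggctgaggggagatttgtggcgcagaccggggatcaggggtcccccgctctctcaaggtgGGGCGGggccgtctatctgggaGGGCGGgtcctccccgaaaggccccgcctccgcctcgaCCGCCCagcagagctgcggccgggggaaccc
ABCA1: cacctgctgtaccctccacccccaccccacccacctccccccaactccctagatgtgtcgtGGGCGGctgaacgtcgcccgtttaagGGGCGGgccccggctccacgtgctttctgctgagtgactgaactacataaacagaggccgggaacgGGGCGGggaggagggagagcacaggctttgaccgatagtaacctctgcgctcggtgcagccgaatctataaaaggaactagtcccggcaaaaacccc
INSIG1: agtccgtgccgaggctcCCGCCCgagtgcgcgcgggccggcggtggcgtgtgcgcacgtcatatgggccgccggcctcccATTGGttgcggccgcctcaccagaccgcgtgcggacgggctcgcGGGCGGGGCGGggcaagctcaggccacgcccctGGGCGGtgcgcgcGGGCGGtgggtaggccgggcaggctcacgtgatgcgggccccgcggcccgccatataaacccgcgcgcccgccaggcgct
SC5D: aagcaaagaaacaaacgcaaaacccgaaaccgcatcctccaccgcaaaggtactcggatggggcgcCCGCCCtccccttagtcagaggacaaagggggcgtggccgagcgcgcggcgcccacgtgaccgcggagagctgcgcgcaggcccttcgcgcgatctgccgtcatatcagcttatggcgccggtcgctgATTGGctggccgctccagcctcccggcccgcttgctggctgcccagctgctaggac
HSD17B7: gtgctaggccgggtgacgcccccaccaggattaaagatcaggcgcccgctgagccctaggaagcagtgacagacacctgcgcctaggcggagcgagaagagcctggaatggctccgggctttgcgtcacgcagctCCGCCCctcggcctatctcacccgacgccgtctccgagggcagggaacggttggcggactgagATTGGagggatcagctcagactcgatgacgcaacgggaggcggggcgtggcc

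The stretches of SREBF1 and ABCA1, both lower with mithramycin, held 3 GC boxes each and 0 NF-Y boxes. That of INSIG1, also lower, held 5 GC boxes, of which a pair overlaps, and 1 NF-Y box. Those of SC5D and HSD17B7, higher with mithramycin, held 1 GC box and 1 NF-Y box each. Over the rest of the list the numbers of GC boxes of higher and lower genes overlapped, and their relation to direction was not tested. TM7SF2, higher in each line, held 4, while ELOVL6, lower in TC71, and both windows of INSIG2, lower in TC32, held 1. The windows of ACACA, lower in each line, held 5, 6 and 0, and those of IDI1, higher in each line, 3, 2 and 1. PMVK and EBP, higher in each line, and FDPS, higher in TC32, held 1 each. The windows of FADS2, higher in TC32, held 0 and 1. NPC1 and both windows of HMGCS1, lower in each line, held 2. The GC content was 71.2% for SREBF1, 61.6% for ABCA1, 78.4% for INSIG1, 66.8% for SC5D and 66.4% for HSD17B7, so the higher and lower genes were not separated by it. The promoter table held 36 windows of 26 of the 29 genes (ACAT2, SQLE and FASN had none in it). Of these, 33 (91.7%) held a GC box, against 42.6% of all 35116 windows and 65.3% of the 10163 windows of genes with a mean level of at least 6. The median GC content of these sets of windows was 68.2%, 58% and 64.8%, in that order, and its part in the shares was not tested. An NF-Y box was in 22 (61.1%), against 32.0% of all windows and 34.1% of those of the brighter genes. The sterol regulatory element TCACNCCAC was searched on both strands too and was found in 1 window, that of SREBF2 (2.78%, against 0.883% of all windows). These matches are letters in a window, and whether a factor binds them was not measured.

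Among the sterol sensors and their transcription factors, SREBF1 and INSIG1 fell in each line and INSIG2 fell in TC32, while SREBF2 and SCAP were not called in either line. Of the 5 genes of this group, 3 fell in TC32 and 2 in TC71, with 0 rising (all genes: 19.4% and 16.1% lower). SREBF1 encodes the SREBP that mainly drives fatty acid synthesis. Its values were 6.93, 6.92 and 7.05 on the TC32 control arrays and 6.24, 6.09 and 6.16 with mithramycin. In TC71 they were 6.90, 6.95 and 6.97 in controls and 6.61, 6.48 and 6.57 with mithramycin. The groups did not overlap in either line, and the TC32 mithramycin arrays were the lowest of all 12. SREBF1 fell by 0.81 ± 0.06 in TC32, which is 1.75-fold (limma adjusted p = 6.07e-07), and by 0.39 ± 0.06 in TC71 (adjusted p = 3.80e-04). The fall in TC71 was smaller by 0.42 ± 0.09 (adjusted p = 0.00904 for the difference). The dimmer of its 2 probe sets was at -0.02 in TC32 and 0.11 in TC71 and was not called, and with the mean of both sets the calls in TC71 (-0.14) and of the difference (0.27, adjusted p = 0.117) were lost.

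INSIG1 and INSIG2 encode related membrane proteins that retain SCAP in the endoplasmic reticulum, and INSIG1 is itself a known SREBP target. INSIG1 stood at 6.60, 6.77 and 6.66 in TC32 control, at 6.10, 6.44 and 5.99 in TC32 mithramycin, at 7.92, 8.04 and 7.86 in TC71 control and at 7.50, 7.46 and 7.54 in TC71 mithramycin. Treated arrays lay below the control arrays in each line, and every TC71 array lay above every TC32 array. With mithramycin INSIG1 fell by 0.50 ± 0.10 in TC32 (adjusted p = 0.00148) and by 0.44 ± 0.10 in TC71 (adjusted p = 0.00429). INSIG2 stood at 6.73, 6.79 and 6.66 in TC32 control and at 5.72, 6.04 and 6.16 in TC32 mithramycin. In TC71 it stood at 6.63, 6.80 and 6.71 in controls and at 6.72, 6.48 and 6.52 with mithramycin, where the groups overlapped. INSIG2 fell by 0.75 ± 0.10 in TC32 (adjusted p = 9.60e-05), and its change in TC71 was -0.14 ± 0.10 (adjusted p = 0.328). The difference between the lines was 0.61 ± 0.15 (adjusted p = 0.0211), a call that was lost without TC32 control replicate 2, TC71 mithramycin replicate 1 or TC71 control replicate 1, each left out in turn. That call was also lost when same-numbered arrays of a line were taken as a block. All 3 probe sets of INSIG1 had a change below 0 in each line, and INSIG2 had 1 set.

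SREBF2, which encodes the SREBP of cholesterol synthesis, was at 0.06 ± 0.07 in TC32 and -0.15 ± 0.07 in TC71 (95% intervals -0.09 to 0.21 and -0.29 to 0.004). SCAP, the escort of the SREBPs, was at 0.01 ± 0.08 and -0.07 ± 0.08 (95% intervals -0.16 to 0.18 and -0.24 to 0.10). These intervals exclude a fall of the size that SREBF1 showed in TC32.

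**Figure D2:**
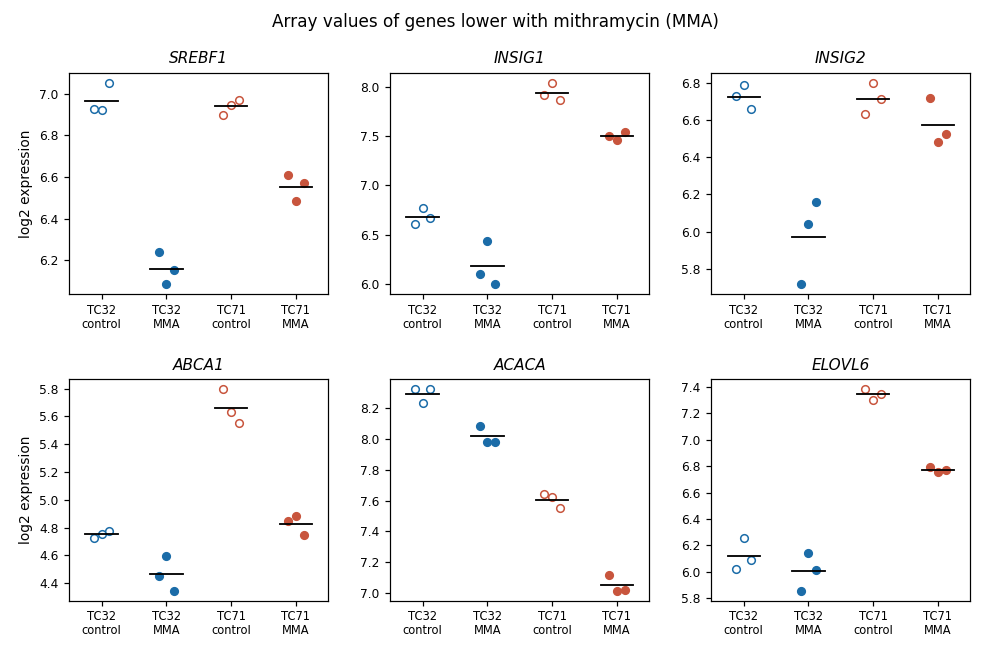
Log2 expression on each array (y axis) for 6 genes that were called lower in at least 1 line, with control arrays as open points, mithramycin (MMA) arrays as filled points and the group mean as a line. TC32 is blue and TC71 red, and each panel has its own axis. SREBF1, INSIG1, ABCA1 and ACACA are lower with mithramycin in each line, INSIG2 in TC32 and ELOVL6 in TC71.

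Of the 3 sterol transport genes, NPC1 and ABCA1 fell in each line and STARD4 was not called (all genes: 19.4% lower in TC32 and 16.1% in TC71). ABCA1 encodes the transporter that passes cholesterol to apolipoproteins outside the cell, and its transcription is classically driven by the oxysterol receptors LXR. Its values in TC71 were 5.80, 5.63 and 5.55 in controls and 4.84, 4.88 and 4.74 with mithramycin. In TC32 they were 4.73, 4.76 and 4.78 in controls and 4.45, 4.59 and 4.35 with mithramycin, close to the array medians, so the size of the TC32 change is rough. Treated arrays lay below controls in each line, and the treated TC71 arrays overlapped the TC32 controls. ABCA1 fell by 0.84 ± 0.08 in TC71, which is 1.79-fold (limma adjusted p = 4.83e-06), and by 0.29 ± 0.08 in TC32 (adjusted p = 0.00977). The fall was deeper in TC71 by 0.55 ± 0.11 (adjusted p = 0.00778 for the difference), a call lost with hybridization control centring (-0.31) and with the mean of its 4 probe sets (-0.23), which also ended the TC32 call (-0.11). The second brightest of these sets was at -0.90 in TC71 and -0.09 in TC32, and a dim set was called higher in TC71 at 0.23.

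NPC1 encodes the protein that lets cholesterol leave lysosomes. It ranged from 8.03 to 8.14 in TC32 control and from 7.56 to 7.67 in TC32 mithramycin, and from 7.90 to 8.11 in TC71 control and 7.52 to 7.64 in TC71 mithramycin, with no overlap in either line. NPC1 fell by 0.48 ± 0.07 in TC32 (adjusted p = 9.73e-05) and by 0.40 ± 0.07 in TC71 (adjusted p = 5.88e-04). Its other 3 probe sets had mean levels under the highest array median and did not follow. The brightest of them was at 0.34 in TC32 and 0.35 in TC71 and was called higher, and the mean of all 4 sets was -0.034 in TC32 and 0.072 in TC71, neither of them called. STARD4, a carrier of cholesterol within the cytosol, was not called, with 0.15 ± 0.08 in TC32 and -0.05 ± 0.08 in TC71.

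Among the 7 genes of the mevalonate steps, 4 rose in TC32 and 3 in TC71, while HMGCS1 fell in each line (all genes: 25.6% higher in TC32 and 19.4% in TC71). The rises were 0 of 7 in TC32 with hybridization control centring (all genes: 1156 of 19775). They were 0 of 7 in TC71 with housekeeping centring (all genes: 1564 of 19775). ACAT2 encodes the cytosolic thiolase that joins acetyl-CoA units at the start of the route. It ranged from 9.02 to 9.21 in TC32 control and from 9.36 to 9.50 with mithramycin, a rise of 0.33 ± 0.06 (adjusted p = 0.00113). In TC71 it ranged from 9.62 to 9.73 and from 9.85 to 9.88, a rise of 0.18 ± 0.06 (adjusted p = 0.0475). With each array left out in turn, the TC71 call was missed in 9 of 12 fits. PMVK, a kinase of the route, rose by 0.32 ± 0.06 in TC32 (adjusted p = 0.00104) and 0.24 ± 0.06 in TC71 (adjusted p = 0.00853), and its treated arrays lay above the controls in each line. IDI1, the isomerase of the isoprenoid units, rose by 0.22 ± 0.06 (TC32) and 0.28 ± 0.06 (TC71), while its 4 probe sets had mean changes between 0.25 and 0.51. FDPS, which makes farnesyl diphosphate, rose by 0.21 ± 0.05 in TC32 (adjusted p = 0.00775) and was at 0.13 ± 0.05 in TC71 (adjusted p = 0.0875).

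HMGCS1, the synthase just before the rate-limiting reductase and a classic SREBP target, went the other way. It stood at 6.57, 6.92 and 6.59 in TC32 control and at 6.26, 6.64 and 6.20 with mithramycin, where the groups overlapped. In TC71 it stood at 8.12, 8.17 and 8.20 in controls and at 7.75, 7.75 and 7.88 with mithramycin, without overlap. HMGCS1 fell by 0.33 ± 0.12 in TC32 (adjusted p = 0.0373) and by 0.37 ± 0.12 in TC71 (adjusted p = 0.0260). The TC32 call was lost in 3 of the 12 fits that left out 1 array and the TC71 call in 4, and its dimmer probe set was not called. With the mean of both sets the TC32 change was -0.083 and not called. MVK and MVD, which phosphorylate and decarboxylate mevalonate compounds, were not called. MVD was at 0.34 ± 0.14 in TC32 (adjusted p = 0.0607) and 0.18 ± 0.14 in TC71, on arrays between 3.96 and 4.86 that lie near the array medians, and MVK at 0.12 ± 0.09 and 0.08 ± 0.09. Of the 4 probe sets of MVK, a dim one was called lower in TC32 at -0.35.

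**Figure D3:**
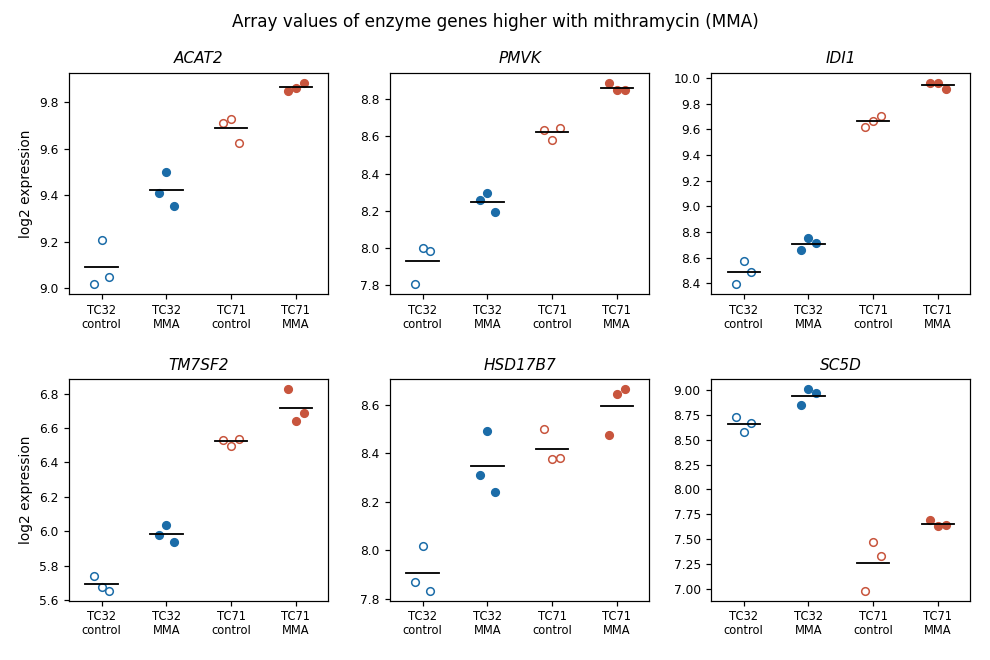
Log2 expression on each array (y axis) for 6 enzyme genes that were called higher in at least 1 line, drawn as open control and filled mithramycin (MMA) points with group means as lines, TC32 in blue and TC71 in red. Treated arrays lie above the controls in both lines for ACAT2, PMVK, IDI1, TM7SF2 and SC5D, and HSD17B7 overlaps in TC71.

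Of the 8 measured genes between squalene and cholesterol, 4 rose in TC32 and 3 in TC71, and SQLE fell in TC32 (all genes: 25.6% higher in TC32 and 19.4% in TC71). Here too 0 of 8 rose in TC32 with hybridization control centring (all genes: 1156 of 19775). In TC71, 0 of 8 rose with housekeeping centring (all genes: 1564 of 19775). HSD17B7, a ketoreductase of the sterol ring, ranged from 7.83 to 8.02 in TC32 control and from 8.24 to 8.49 with mithramycin. It rose by 0.44 ± 0.08 in TC32 (adjusted p = 9.17e-04) and was at 0.18 ± 0.08 in TC71 (adjusted p = 0.119), and the difference between the lines was not called (-0.26, 95% interval -0.52 to -0.01, adjusted p = 0.202). It had 1 probe set, of a class whose probes can also match similar transcripts, so its value is uncertain. TM7SF2, a sterol reductase, rose by 0.29 ± 0.06 in TC32 (adjusted p = 0.00152) and 0.20 ± 0.06 in TC71 (adjusted p = 0.0203). EBP, the sterol isomerase, rose by 0.17 ± 0.06 in each line (adjusted p = 0.0272 and 0.0421), and these calls were lost in 3 and 8 of the 12 fits that left out 1 array. SC5D, the lathosterol oxidase, rose by 0.28 ± 0.10 in TC32 (adjusted p = 0.0400), which missed the threshold in 8 of those fits, and by 0.39 ± 0.10 in TC71 (adjusted p = 0.00959). TC71 control replicate 1 was low for SC5D at 6.99, beside 7.47 and 7.33, and without it the TC71 rise was 0.26 (adjusted p = 0.0207). Its only other probe set, with a mean level of 2.37, was at 0.06 and 0.07 and was not called.

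SQLE encodes squalene epoxidase, which puts the first oxygen into the sterol skeleton. Its values were 9.0, 8.86 and 8.89 in TC32 control and 8.69, 8.62 and 8.65 with mithramycin, and 10.55, 10.65 and 10.70 in TC71 control and 10.65, 10.56 and 10.59 with mithramycin. SQLE fell by 0.26 ± 0.06 in TC32 (adjusted p = 0.00319), where the groups did not overlap, and was at -0.03 ± 0.06 in TC71, where they did. The difference between the lines was not called (0.23, 95% interval 0.05 to 0.41, adjusted p = 0.118). The other 3 probe sets of SQLE were not called in either line, and 1 of them was at -0.32 in TC32 and 0.38 in TC71. LSS, the cyclase that closes the rings, MSMO1, a sterol methyl oxidase, and DHCR7, the reductase of the last step, were not called in either line, with changes between -0.11 and 0.04. The dimmer probe set of DHCR7 was called higher in each line, at 0.24 and 0.33, against -0.05 and 0.03 for the brightest set.

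Of the 6 measured fatty acid genes, ACACA fell and FADS2 rose in TC32, and ACACA and ELOVL6 fell in TC71 (all genes: 19.4% lower in TC32 and 16.1% in TC71, and 25.6% higher in TC32). ACACA encodes acetyl-CoA carboxylase, which commits acetyl-CoA to fatty acids. Its values were 8.32, 8.23 and 8.32 in TC32 control and 8.08, 7.98 and 7.98 with mithramycin, and 7.64, 7.62 and 7.55 in TC71 control and 7.12, 7.02 and 7.02 with mithramycin. The 4 groups did not overlap. ACACA fell by 0.28 ± 0.06 in TC32 (adjusted p = 0.00175) and by 0.56 ± 0.06 in TC71 (adjusted p = 1.00e-05). The difference of -0.28 ± 0.08 had an adjusted p of 0.0464 and lost its call in 10 of the 12 fits that left out 1 array. The dimmer probe set was at 0.08 and 0.04 and was not called, and with the mean of both sets the TC32 call was lost (-0.10).

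ELOVL6, which lengthens palmitate, ranged from 6.02 to 6.26 in TC32 control and from 5.86 to 6.14 with mithramycin, and these groups overlapped. In TC71 it stood at 7.39, 7.30 and 7.35 in controls and at 6.79, 6.76 and 6.77 with mithramycin. It fell by 0.57 ± 0.08 in TC71 (adjusted p = 1.12e-04) and was at -0.12 ± 0.08 in TC32 (adjusted p = 0.248). The difference was -0.46 ± 0.11 (adjusted p = 0.0217), lost in 3 of the 12 fits that left out 1 array, namely TC32 control replicate 1, TC32 control replicate 3 or TC71 control replicate 1, and with hybridization control centring. All 3 of its probe sets were called lower in TC71, between -0.78 and -0.43. FADS2, a desaturase of polyunsaturated fatty acids, rose by 0.19 ± 0.06 in TC32 (adjusted p = 0.0296) and was at -0.03 ± 0.06 in TC71. Its TC32 call was missed in 4 of the 12 fits.

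FASN, the fatty acid synthase itself, ACLY, which makes cytosolic acetyl-CoA from citrate, and SCD, the desaturase that makes oleate, were not called in either line. FASN was at -0.09 ± 0.06 in TC32 and -0.16 ± 0.06 in TC71, ACLY at 0.00091 ± 0.05 and -0.06 ± 0.05, and SCD at 0.07 ± 0.05 and 0.06 ± 0.05. The 4 probe sets of SCD ranged from -0.32 to 0.25 in the mean of both lines and were called in opposite directions, so its sets disagree. The same was true of the 2 sets of FASN, at -0.12 and 0.24. The further sets of ACLY, LSS and SREBF2 were not called in either line, and each of these genes had at least 1 set that differed in sign from its brightest set.

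**Figure D4:**
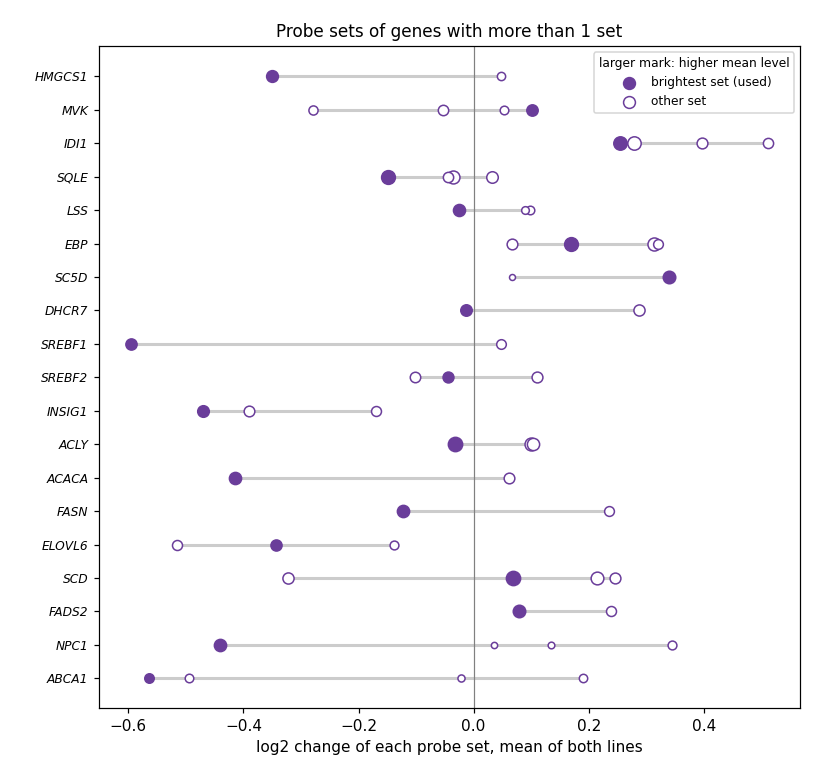
Mean log2 change of both lines (x axis) for each probe set of the 19 genes with more than 1 set, with the brightest set filled and larger marks for sets of higher mean level. The sets of IDI1, EBP, INSIG1 and ELOVL6 lie on one side of 0, whereas those of SREBF1, ACACA, SCD, NPC1 and ABCA1 lie on both sides.

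The untreated lines differed in the level of most of these genes. In TC71 controls 16 of the 29 genes were higher than in TC32 controls (55.2%, against 26.7% of all genes) and 6 were lower (20.7%, against 24.8%), and the median difference was 0.43 beside -0.03 over all genes. These values share the control arrays with the treatment changes, so the 2 sets of values are not independent. The beta-actin gap also differed between these controls, at 0.71 ± 0.04 in TC32 and 1.45 ± 0.48 in TC71 (SD), and its part was not tested. SQLE was higher in TC71 by 1.72 ± 0.06 (limma adjusted p = 1.06e-10), HMGCS1 by 1.47 ± 0.12, INSIG1 by 1.26 ± 0.10, ELOVL6 by 1.22 ± 0.08 and IDI1 by 1.18 ± 0.06. ABCA1 was higher by 0.91 ± 0.08, STARD4 by 0.88 ± 0.08 and TM7SF2 by 0.83 ± 0.06. The other 8 higher genes lay between 0.19 (FDPS) and 0.73 (MSMO1). For each of the 16 higher genes the control arrays of the lines did not overlap. These genes were picked by their call on the same arrays, so this adds no support to it. The share over all genes was not counted.

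The lower genes in TC71 controls were SC5D by -1.40 ± 0.10 (limma adjusted p = 1.23e-07), ACLY by -0.80 ± 0.05, ACACA by -0.69 ± 0.06, DHCR7 by -0.32 ± 0.06, LSS by -0.27 ± 0.05 and MVK by -0.22 ± 0.09. SREBF2 was higher in TC71 by 0.43 ± 0.07, while SREBF1 was at -0.03 ± 0.06 (95% interval -0.16 to 0.11) and INSIG2 at -0.01 ± 0.10 (95% interval -0.24 to 0.22). Centred on housekeeping genes, 20 genes were higher and 3 lower in TC71, while over all 19775 genes 9554 were higher and 2849 lower. Centred on hybridization controls the counts were 17 and 4 (all genes: 5226 and 3482). Without the probe sets of the classes open to cross-matching, 20 genes were left and 10 were higher in TC71 (all genes: 4129 of 17098).

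**Figure D5:**
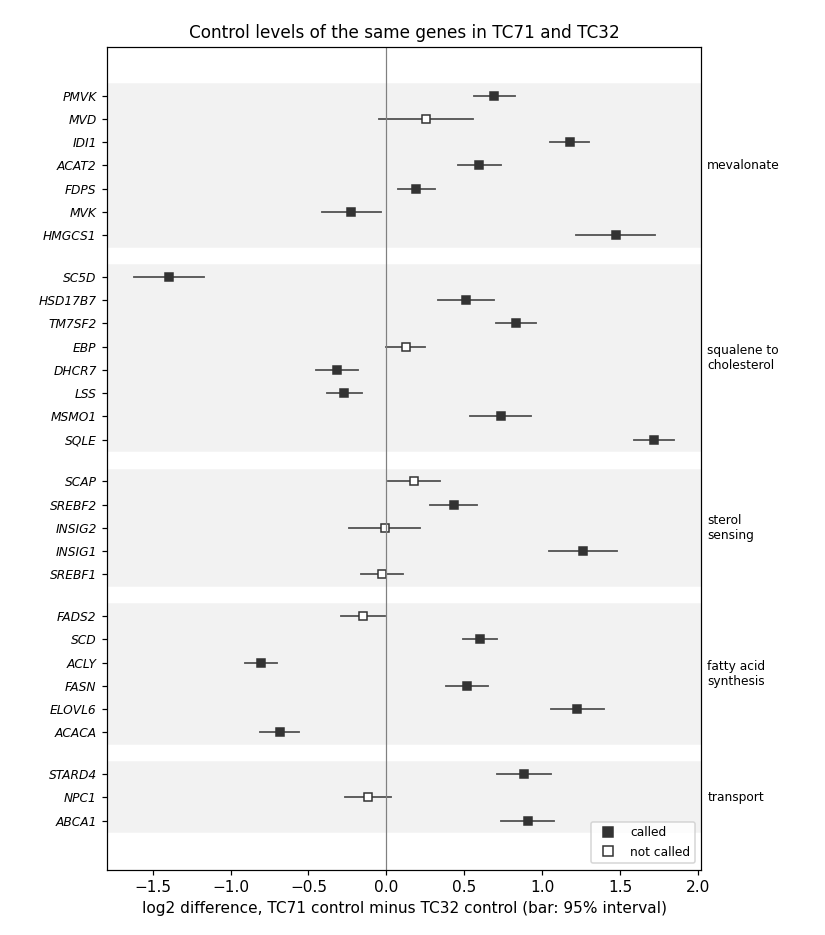
Log2 difference between control arrays, TC71 minus TC32 (x axis), for the 29 genes grouped by role, with limma estimates as squares and 95% intervals as bars, open where not called. SQLE, HMGCS1, INSIG1, ELOVL6 and IDI1 lie above 1, and SC5D lies below -1.

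Other genes of the same routes moved both ways. Of 21 measured further genes of sterol and fatty acid synthesis, 5 rose and 6 fell in TC32 (23.8% and 28.6%, against 25.6% and 19.4% of all genes) and 3 rose and 6 fell in TC71 (14.3% and 28.6%, against 19.4% and 16.1%). LPIN1, a phosphatidate phosphatase, fell by 0.82 ± 0.07 in TC32 (limma adjusted p = 1.59e-06) and 0.45 ± 0.07 in TC71. MID1IP1, an activator of acetyl-CoA carboxylase, fell by 0.79 ± 0.06 and 0.34 ± 0.06. OXSM, of mitochondrial fatty acid synthesis, rose by 0.52 ± 0.07 and 0.54 ± 0.07, and SLC25A1, the citrate carrier, rose by 0.33 ± 0.07 in each line. The call of SLC25A1 was lost in TC32 with hybridization control centring and in TC71 with housekeeping centring.

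Of 14 measured genes that process, degrade or assist SREBPs, 3 rose and 5 fell in TC32 (21.4% and 35.7%, against 25.6% and 19.4% of all genes) and 3 rose and 6 fell in TC71 (21.4% and 42.9%, against 19.4% and 16.1%). MBTPS1 and MBTPS2 encode the proteases that release SREBPs from the Golgi membrane. MBTPS1 fell by 0.44 ± 0.07 and 0.39 ± 0.07 in TC32 and TC71, and MBTPS2 fell by 0.81 ± 0.07 and 0.89 ± 0.07 (limma adjusted p = 1.98e-06 and 1.28e-06). With the mean of its 3 probe sets the TC32 change of MBTPS2 was -0.18 and not called. NFYA, a subunit of NF-Y, fell by 1.18 ± 0.08 in TC32 (adjusted p = 1.38e-07) and 0.48 ± 0.08 in TC71. MARCHF6, a ubiquitin ligase that acts on squalene epoxidase, fell by 0.59 ± 0.06 and 0.46 ± 0.06, and with the mean of its 6 probe sets its TC32 change was -0.07 and not called.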

How the data were processed

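RNA of 12 samples was hybridized to 12 one-colour arrays. The authors deposited log2 values per probe set, and RMA (background correction, quantile normalization, probe summary) is named in the submitters' processing notes. Which version and settings were used is not stated in the labels. RMA tends to shrink fold changes and to remove shifts shared by most genes. Of 54675 probe sets, 41091 had 1 gene symbol, 1801 several and 11721 none here, and 62 were controls. Symbols were updated through Entrez identifiers in a RefSeq table (GRCh38.p14).

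All 12 arrays entered 1 model of 4 group means in limma 3.58.1 (R 4.3.3, lmFit and eBayes), with Benjamini-Hochberg adjustment over 19775 genes and calls at 0.05, two-sided. The fit was tested on simulated data. Group and replicate came from the labels, and p-values measure the spread between cultures of a line. Named genes were all members, with every array's value for changes of at least 0.5 in a line, for a difference between lines, and for some others chosen after their values were seen, and up to 4 called genes of each further list by mean change. Probe sets were also tested singly over all 41091. Members, lists and tests were chosen with earlier results of these data known. Alternatives changed the probe set rule, a mean of at least 6, the scaling, the prior, the block and the arrays used. Depth does not apply to arrays, and no batch labels or detection calls were used.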

Additional observations from a re-analysis of the deposited data

Results flagged for a closer look

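For 5 genes the change with mithramycin differed between the lines by limma's test of the difference (TC71 change minus TC32 change, n = 3 arrays per group, adjusted over all genes). SREBF1 differed by 0.42 ± 0.09 (adjusted p = 0.00904), and INSIG2 by 0.61 ± 0.15 (adjusted p = 0.0211), with the deeper fall in TC32 for each. ABCA1 differed by -0.55 ± 0.11 (adjusted p = 0.00778), ELOVL6 by -0.46 ± 0.11 (adjusted p = 0.0217) and ACACA by -0.28 ± 0.08 (adjusted p = 0.0464), with the deeper fall in TC71. When each of the 12 arrays was left out in turn, the calls of SREBF1 and ABCA1 held in all fits, those of INSIG2 and ELOVL6 were lost in 3 each, and that of ACACA was lost in 10. With same-numbered arrays of a line taken as a block, INSIG2 and ACACA lost the call. With the mean of all probe sets of a gene, SREBF1 (0.27), ABCA1 (-0.23) and ACACA (-0.16) lost the call.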

How the results depend on the processing

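Counts of called genes of the list moved by over 1.5 times as follows. Without the _x_at and _s_at probe sets, where 20 genes are left, 4 were higher in TC32, 2 in TC71, 4 in the mean of both lines and 10 in TC71 control minus TC32 control. With housekeeping centring (10 of 12 genes measured), 4 were higher in TC32, 0 higher and 12 lower in TC71, and 3 lower in the control comparison. With hybridization control centring 0 were higher in TC32, and 0 were lower for the difference between the lines. With the mean of probe sets 4 were lower in TC32, and 1 was higher and 1 lower for the difference between the lines. Leaving out each array in turn gave 6 to 9 higher and 7 to 8 lower in TC32, 3 to 6 and 6 to 8 in TC71, 8 to 9 and 9 to 10 in the mean, 1 to 2 and 1 to 3 in the difference, and 16 to 17 and 5 to 6 in the control comparison. Without TC71 control replicate 2 or TC71 mithramycin replicate 1 the 6 rises in TC71 became 3. Over all genes the 3828 rises in TC71 then became 2973 and 3176. For the difference between the lines, 1 gene was higher without TC32 control replicate 2, TC71 mithramycin replicate 1 or TC71 control replicate 1, and 1 lower without TC32 control replicate 1, TC32 control replicate 3 or TC71 control replicate 1. NPC1 in TC71 reversed to 0.072 with the mean of probe sets, and MYLIP to -0.46 in TC32 and -0.24 in TC71 without the _x_at and _s_at sets. The cause was not tested.

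Deviations of same-numbered arrays from group means correlated across genes at 0.08, 0.24 and 0.04 in TC32 and -0.07, -0.02 and -0.01 in TC71. Those of differently numbered arrays lay between -0.19 and 0.12 in TC32 and between -0.03 and 0.05 in TC71. The TC32 arrays numbered 2 thus deviated together to a degree, and the others did not stand out. The numbers were not taken as pairs in the main model. With the replicate block 9 genes were higher and 8 lower in TC32, 5 and 7 in TC71, and 1 and 2 for the difference between the lines. Under it the threshold was missed by INSIG2 (limma adjusted p = 0.0549) and ACACA (0.0707) for the difference, SC5D in TC32 (0.0660) and EBP in TC71 (0.0564), and passed by MVD in TC32 (0.0399). The block could not be fitted to the control comparison, nor could the fits of 1 line to anything but that line's change.

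Over all genes, 5060 were higher in TC32, against 2758 with housekeeping and 1156 with hybridization control centring. In TC71 3828 were higher, against 1564 with housekeeping centring. For the mean of both lines 6500 were higher, against 2963 and 3746. Lower calls in the control comparison went from 4904 to 2849 and higher ones from 5281 to 9554 with housekeeping centring. For the difference 1239 higher and 736 lower became 2531 and 190 with hybridization controls. With the 8386 genes of a mean of at least 6, 2966 were higher in TC32, 3335 in the mean, and 3178 lower in the control comparison.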

Other observations

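Of 18 measured genes of LXR signalling, cholesterol storage and export, 7 rose and 3 fell in TC32 and 6 rose and 4 fell in TC71 (all genes: 25.6% and 19.4%, and 19.4% and 16.1%). RXRA, the partner of LXR and other nuclear receptors, fell by 1.34 ± 0.08 in TC32 (limma adjusted p = 8.16e-08) and 1.33 ± 0.08 in TC71 (adjusted p = 1.25e-07). VLDLR, a lipoprotein receptor, fell by 1.12 ± 0.09 and 0.28 ± 0.09, and the TC71 call was missed in 5 of 12 fits without 1 array. NPC2, the soluble lysosomal partner of NPC1, rose by 0.52 ± 0.05 and 0.31 ± 0.05, against the fall of NPC1. MYLIP, an LXR-induced ubiquitin ligase that removes lipoprotein receptors, rose by 0.63 ± 0.06 and 0.60 ± 0.06, while without the _x_at and _s_at probe sets it was at -0.46 and -0.24.

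Of 14 measured genes of fatty acid oxidation, 8 rose and 2 fell in TC32 (57.1% and 14.3%, against 25.6% and 19.4% of all genes) and 7 rose and 3 fell in TC71 (50% and 21.4%, against 19.4% and 16.1%). With housekeeping centring 7 rose and 2 fell in TC32 (all 19775 genes: 2758 and 4697) and 2 rose and 3 fell in TC71 (1564 and 4636). With hybridization control centring 1 rose and 2 fell in TC32 (all genes: 1156 and 4507) and 7 rose and 2 fell in TC71 (4421 and 2139). CPT2, which brings acyl groups into the mitochondrial matrix, rose by 1.08 ± 0.10 in TC32 (limma adjusted p = 2.56e-06) and 0.48 ± 0.10 in TC71. ACAA2 rose by 0.34 ± 0.06 and 0.31 ± 0.06 and ACADS by 0.31 ± 0.09 and 0.35 ± 0.09. The TC32 call of ACADS was missed in 3 of 12 fits without 1 array and the TC71 call in 1. PPARD, a nuclear receptor for fatty acids, fell by 0.49 ± 0.08 and 0.66 ± 0.08, and with the mean of its 4 probe sets its TC32 change was -0.09 and not called.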
